A study of Mus musculus with 15 samples.

Results

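The transcripts of the mitochondrial genome were examined in RNA-seq libraries of mouse retinal pigment epithelium (RPE) labelled WT or *Prom1*-KO. The members were all rows whose gene symbol begins with mt-, 26 genes over both count tables. The table of cultured cells held 18 of them among 20910 genes, the table of RPE/choroid tissue held 25 among 25038, and 17 were in both. The cultured mRPE cells were pooled from C57BL/6J mice and immortalised with the E6 and E7 genes of human papillomavirus. They were WT (n = 4 libraries) or *Prom1*-KO (line KO22, n = 3, and line KO26, n = 2), the KO lines being made from Cas9-expressing mRPE cells with a guide RNA to exon 5. Whether the WT libraries came from cells with Cas9 is not given in the sources used here. WT, KO22 and KO26 library 1 came from sequencing batch 8995 and all other mRPE libraries from batch 9262. The RPE/choroid libraries were WT (n = 3) or KO (n = 3), from mice with the alleles Prom1 fl/fl and RPE65-Cre, gavaged with tamoxifen. By this design photoreceptors and choroidal cells keep the gene, which was not tested here. The ages of the mice, and whether the WT mice carried the floxed allele or received tamoxifen, are not given in the sources used here. Each mRPE line gives repeat libraries of a single line, and p-values measure the spread between these libraries.

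The mouse mitochondrial genome is a small circle that encodes 2 ribosomal RNAs, 13 proteins of the respiratory chain and 22 tRNAs, 37 genes in all. Both of its strands are transcribed as long precursors, from which the tRNAs between the other genes are cut out. The 12S and 16S rRNAs (mt-Rnr1 and mt-Rnr2) form the cores of the small and large mitochondrial ribosome subunits. The mt-Nd genes encode subunits of complex I, mt-Cytb a subunit of complex III, mt-Co1 to mt-Co3 subunits of complex IV and mt-Atp6 and mt-Atp8 subunits of complex V. The RPE is a pigmented epithelium that relies strongly on oxidative metabolism and serves the photoreceptors. The libraries are described as made from poly(A) RNA, so the counts are taken to reflect adenylated RNA and what is carried along with it. How far this selection reached in each table was not tested.

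Not all of these genes can be counted alike, because part of the mitochondrial genome is also present in nuclear DNA. In GRCm39 (mm39, the build of the tables), bases 6394 to 11042 of the mitochondrial genome matched chr1:24650616-24655265 on the minus strand with 2 differing positions in 4650 aligned bases. Of 16150 windows of 150 bases, the read length of the study, 4329 (26.8%) occurred unchanged in a nuclear chromosome, 4209 of them on chromosome 1. The copy covers the 3′ part of mt-Co1, the 5′ part of mt-Nd4 and the whole of 11 genes between them. The edge of the copy inside mt-Co1 is shown by both sequences, 5′ to 3′ along the mt-Co1 mRNA, with the shared bases in capitals. They lie at chrM:6354-6433 on the plus strand and at chr1:24655226-24655305 on the minus strand.
mitochondrial edge: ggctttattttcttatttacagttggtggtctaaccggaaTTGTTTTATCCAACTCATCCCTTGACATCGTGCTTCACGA
nuclear edge: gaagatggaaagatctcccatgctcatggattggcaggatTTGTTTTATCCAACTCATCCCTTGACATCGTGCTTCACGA
From this edge the next 3067 bases were identical, up to base 9461 in mt-Nd3, where the copy carries the substitution T9461C, counted along the mitochondrial plus strand. The capital marks that base in the pair below, at chrM:9421-9501 on the plus strand and chr1:24652158-24652238 on the minus strand.
mitochondrial site: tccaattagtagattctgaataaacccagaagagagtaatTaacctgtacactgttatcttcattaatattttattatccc
nuclear site: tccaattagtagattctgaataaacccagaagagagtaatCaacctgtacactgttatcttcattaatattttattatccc

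Among the protein genes, those wholly inside the copy had few or no counts in most libraries, an exception being mt-Co2 with 640 CPM (counts of a gene per 1000000 counts of its library) in KO RPE/choroid library 2. All 5 protein genes outside it and both that it covers in part (mt-Co1 and mt-Nd4) were listed in both tables. Of the 6 wholly inside it, 2 were listed in the mRPE table (mt-Co3 and mt-Nd3) and 4 in the RPE/choroid table (mt-Co2, mt-Atp6, mt-Nd3 and mt-Nd4l). mt-Co3 had 0 to 10 counts in 8 mRPE libraries and 630 in WT library 1, and mt-Nd3 had 0 to 17. In WT RPE/choroid, mt-Co2 reached 0.796 ± 0.526 CPM (SD, n = 3), whereas Gm28661, the nuclear pseudogene at chr1:24653966-24654646 that lies over the copy of mt-Co2, reached 1268 CPM (1145 to 1416). In WT mRPE cells Gm28661 stood at 3.96 CPM, between 2.60 and 5.71. For a member inside the copy, the abundance of the transcript and the placement of its reads cannot be told apart in these tables.

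**Figure D1:**
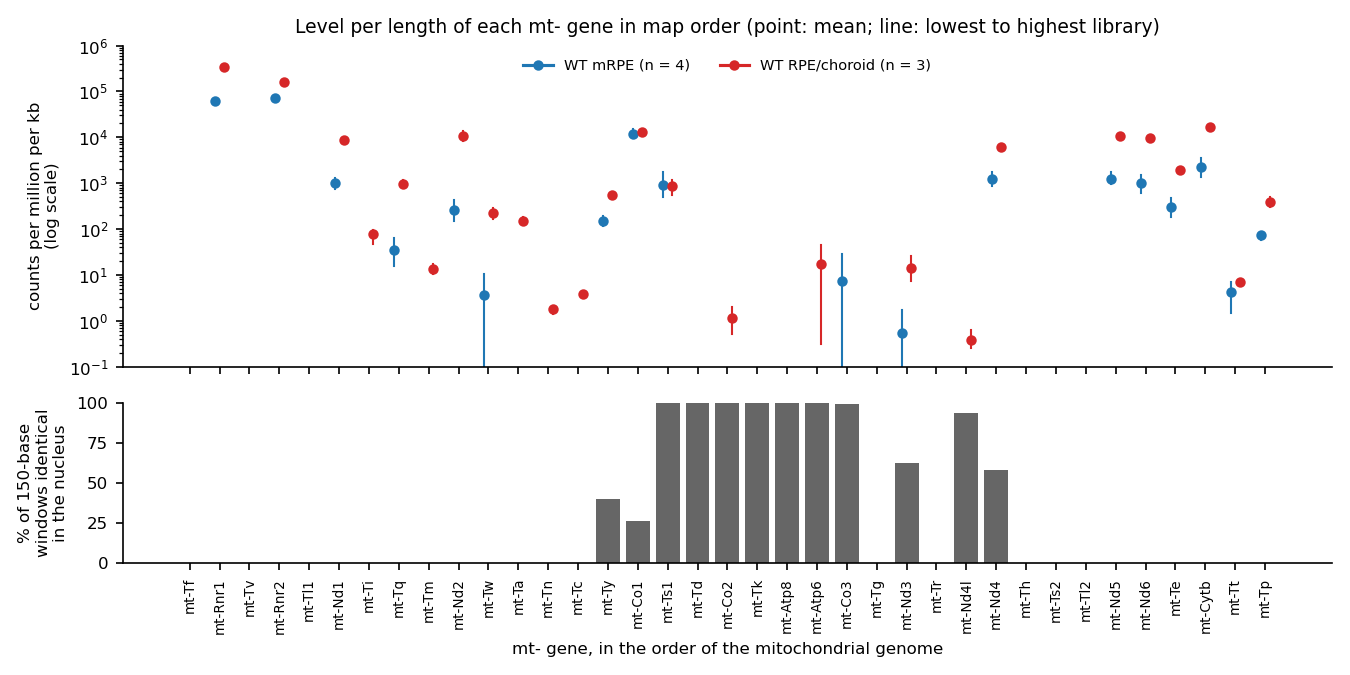
Upper panel, CPM per kb of gene length (log scale) for the mt- genes in genome order, as the mean (point) and the lowest to highest library (line, reaching the axis where a library has 0 counts) of WT mRPE cells and WT RPE/choroid. Lower panel, percent of the 150-base windows centred in each gene that occur unchanged in a nuclear chromosome. The protein genes wholly inside the copy have means of at most 17.3 CPM per kb or no point, against 258 or more for the other protein genes. mt-Co1, with 26.1% of such windows, has the highest mRNA level in WT mRPE cells.

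The tRNA genes with counts were mainly those encoded on the minus strand of the reference, which is the strand of the L-strand transcript. Of 22 annotated tRNA genes, 7 were listed in the mRPE table and 12 in the RPE/choroid table. Among the 8 encoded on the minus strand of the reference these were 5 and 8, and among the 14 on the plus strand 2 and 4. The minus-strand tRNAs made up 98.1% to 99.8% of tRNA counts in mRPE libraries and 93.3% to 96.2% in RPE/choroid. In both tables the same 5 tRNA genes had the most counts, mt-Ts1, mt-Te, mt-Ty, mt-Tp and mt-Tq. mt-Ts1 had 34.5 to 135 CPM in mRPE cells although all windows centred in it occur unchanged in the nuclear copy. Of the windows centred in mt-Ty, which lies outside the copy on chromosome 1, 40.3% occur unchanged in another nuclear chromosome. Their gene sequences are shown 5′ to 3′ on the minus strand with the anticodon in capitals.
mt-Ts1 (serine, chrM:6870-6938): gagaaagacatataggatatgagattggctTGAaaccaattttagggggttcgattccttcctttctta
mt-Te (glutamate, chrM:14071-14139): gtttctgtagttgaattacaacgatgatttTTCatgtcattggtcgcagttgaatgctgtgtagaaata
mt-Ty (tyrosine, chrM:5260-5326): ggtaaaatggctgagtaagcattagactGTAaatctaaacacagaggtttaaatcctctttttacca
mt-Tp (proline, chrM:15356-15422): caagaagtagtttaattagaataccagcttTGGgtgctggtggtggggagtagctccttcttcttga
mt-Tq (glutamine, chrM:3772-3842): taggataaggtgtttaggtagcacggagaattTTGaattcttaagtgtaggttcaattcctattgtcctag
The reads are longer than a tRNA, and the column of strand counts that the tables hold is not given in the sources used here, so these counts can also come from longer L-strand precursors or from the opposite strand. Some plus-strand tRNA genes abut a gene of the same strand, as mt-Tm ends at base 3913 and mt-Nd2 begins at base 3914. How reads that overlap both genes were counted was not tested, so the strand shares are not read as a property of the transcripts.

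The libraries held 8076188 to 27537863 counts for mRPE cells and 48154444 to 61766179 for RPE/choroid. At these depths the 95% binomial interval (Wilson) of a class share was at most 0.0241 percentage points to either side, which covers counting error only. Replicate libraries differed by more than counting noise (chi-square per degree of freedom 4.60 to 234 over pairs). Both KO26 libraries are those that the study set aside as outliers after batch correction, and they are kept here, outside the fit of KO22 against WT. KO RPE/choroid library 3 stood apart from all other tissue libraries, with a TMM normalisation factor of 0.488 against 1.07 to 1.33 in the other 5. *Prom1* (ENSMUSG00000029086), the targeted gene, was counted in RPE/choroid at 58.2, 55.7 and 70.7 CPM in WT and 53.4, 51.7 and 17.3 CPM in KO libraries 1 to 3. On the scale of counts outside mt- (per 1000000), KO libraries 1 and 2 had 186 and 178 against 177 to 202 in WT, and KO library 3 had 110. Its log2 fold change was -0.18 ± 0.16 (edgeR adjusted p = 0.824), so the count of the whole gene did not separate the tissue libraries labelled KO from WT, and every direction given for this tissue rests on the labels. By the design of the mice, photoreceptors and choroidal cells keep the gene, and their part in this count was not tested. Which part of the gene the deletion removes is not given in the sources used here. *Prom1* was not analysed here in mRPE cells, so the KO22 and KO26 labels were not checked on the targeted gene. RPE markers checked the tissue label: all 11 were listed in RPE/choroid, whose WT libraries gave 7493 to 10766 counts on them for every 1000000 counts outside mt-, while 5 were listed in the mRPE table, without *Rpe65*, at 19.8 to 25.0 on that scale in WT cells.

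Mitochondrial genes held 12.9% to 21.6% of the counts of an mRPE library and 64.9% to 84.2% of those of an RPE/choroid library. Most of these counts were on the rRNA genes in both materials. In WT mRPE cells the rRNA genes took 17.2% ± 1.62 of counts, the mRNA genes 2.65% ± 0.674 and the tRNA genes 0.0102% ± 0.00471 (SD, n = 4). In WT RPE/choroid the shares were 57.9% ± 2.28 for rRNA, 9.14% ± 0.757 for mRNA and 0.0361% ± 0.000612 for tRNA genes (SD, n = 3). The tables were not tested against each other, since culture, tissue and sequencing run change together between them.

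**Figure D2:**
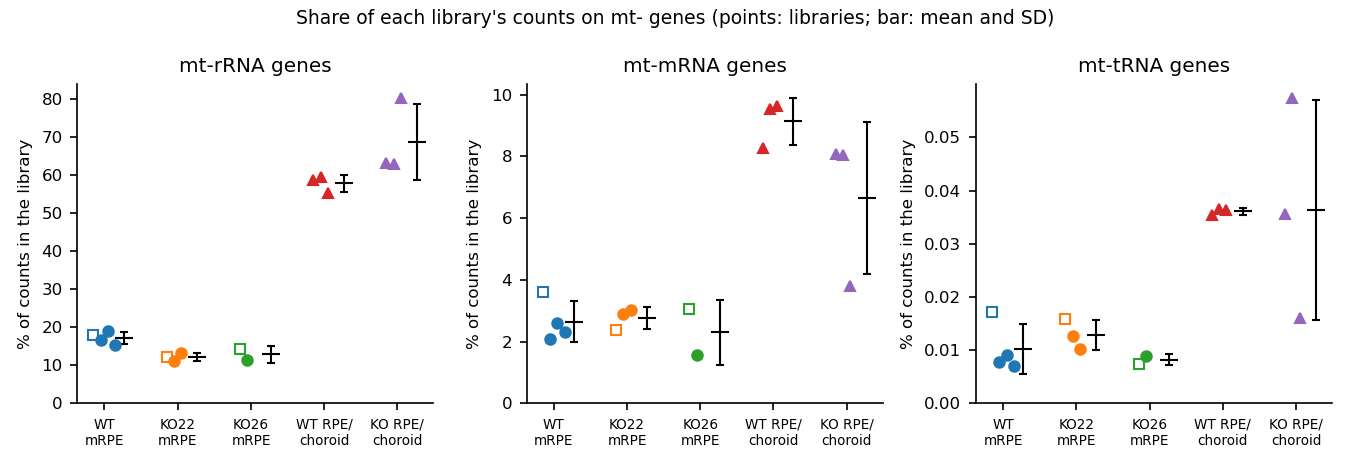
Percent of each library's counts on the mt-rRNA, mt-mRNA and mt-tRNA genes, by group. Points are libraries (open squares batch 8995, filled circles batch 9262, triangles tissue) and the bar beside them is the mean with its SD. The rRNA shares of all 5 KO mRPE libraries, 11.1% to 14.4%, lie below those of the 4 WT libraries, 15.3% to 19.0%. KO RPE/choroid library 3 lies apart in all 3 panels. In the tRNA panel KO RPE/choroid library 2 lies apart too, on the other side (0.0574%, against 0.0161% in library 3 and 0.0354% to 0.0366% in WT).

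The rRNAs and mRNAs differed in their proportions between the materials. Per kb of gene length, the 12S and 16S rRNAs had levels whose ranges over libraries overlapped in WT mRPE cells, with 61969 ± 6964 CPM per kb for mt-Rnr1 and 71343 ± 6966 for mt-Rnr2. Within every WT mRPE library mt-Rnr2 was the higher, as in WT library 4 with 62125 against 57322. In WT RPE/choroid mt-Rnr1 was the higher, at 345469 ± 20645 CPM per kb against 157199 ± 9913. mt-Co1, a catalytic subunit of cytochrome c oxidase, made up 66.2% to 71.6% of mt-mRNA counts in WT mRPE cells and 64.3% to 73.9% in the KO lines. In RPE/choroid it made up 17.1% to 24.1%, beside 19.8% to 21.8% for mt-Cytb and 12.9% to 22.4% for mt-Nd5. The complex I genes together held 21.5% ± 1.2 of mt-mRNA counts in WT mRPE cells and 57.2% ± 3.0 in WT RPE/choroid. Per kb of gene length, mt-Co1 stood at 11807 ± 2583 CPM in WT mRPE cells and mt-Cytb next at 2216 ± 992, ranges that did not overlap. The place of mt-Cytb depended on the length used. Per kb of windows not found unchanged in a nuclear chromosome, mt-Co1 stood at 15987 ± 3497 and mt-Nd4 next at 2912 ± 996. On that scale mt-Nd4 was above mt-Cytb (2216 ± 992) within every WT mRPE library. Per kb of gene length, mt-Cytb was above mt-Nd4, mt-Nd5, mt-Nd1 and mt-Nd6 within every WT mRPE library. The order of mt-Nd4, mt-Nd5, mt-Nd1 and mt-Nd6 changed between these libraries. mt-Nd2 was the lowest of those outside the copy, at 258 ± 127 CPM per kb.

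**Figure D3:**
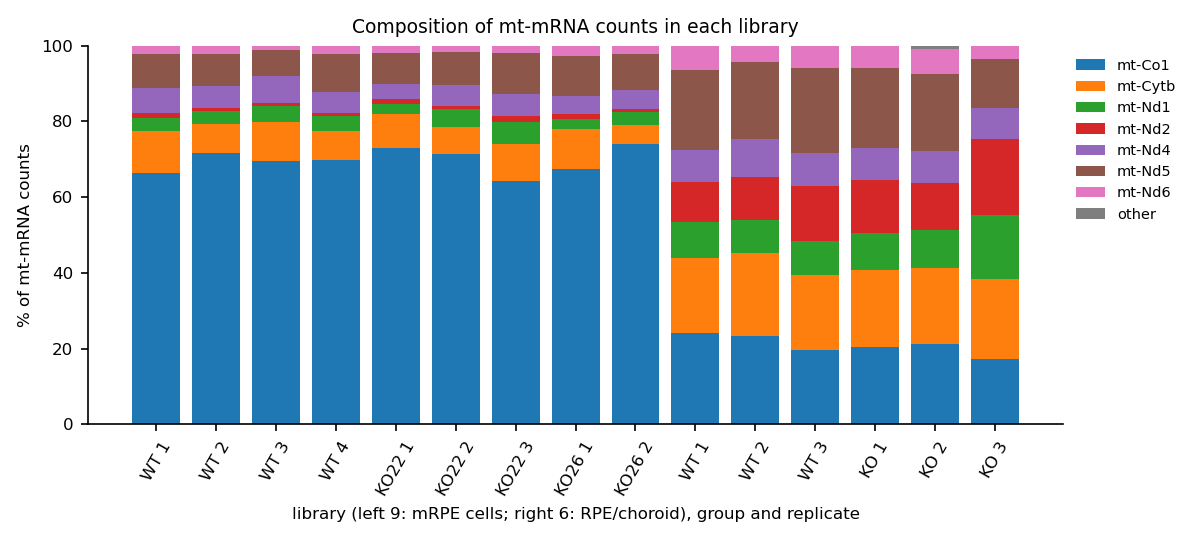
Composition of the mt-mRNA counts of each library, in percent, as stacked bars with mRPE libraries on the left and RPE/choroid libraries on the right. mt-Co1 fills 64.3% to 73.9% of the mRPE bars and 17.1% to 24.1% of the tissue bars. KO RPE/choroid library 3 has the largest parts of mt-Nd1 (16.9%) and mt-Nd2 (20.0%).

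In KO22 cells the rRNA genes had a lower share of counts than in WT cells in both batches. The share was 17.9%, 16.5%, 19.0% and 15.3% in WT libraries 1 to 4 and 12.1%, 11.1% and 13.3% in KO22 libraries 1 to 3. The groups did not overlap, and the KO22 mean of 12.2% ± 1.08 was 0.707 of the WT mean. The exact two-sided permutation test gave p = 0.0571, the smallest that 3 against 4 libraries allow, and 0.381 after adjustment over the 20 values tested in this way. Within batch 8995 the share was 12.1% in KO22 and 17.9% in WT (1 library each), and within batch 9262 it was 12.2% (n = 2) and 17.0% (n = 3). By gene, mt-Rnr2 differed from WT by -0.54 ± 0.21 on the log2 scale (SE, edgeR adjusted p = 0.0534) and mt-Rnr1 by -0.35 ± 0.21 (adjusted p = 0.187). DESeq2 put mt-Rnr2 past the threshold (log2 fold change -0.54, adjusted p = 0.00275). Cell markers differed between these cells too, in counts per 1000000 counts outside mt-. The 4 listed endothelial markers summed to 195 to 275 in WT, 4.01 to 5.55 in KO22 and 69.2 to 79.7 in KO26. The 5 smooth muscle and pericyte markers summed to 11.8 to 25.7 in WT, 6.11 to 11.5 in KO22 and 51.0 to 68.8 in KO26, and the 5 listed RPE markers to 19.8 to 25.0, 29.0 to 64.0 and 17.4 to 25.0. The members of a list did not all move together. In KO22 against WT, edgeR called 1 endothelial marker higher and 2 lower of 4 tested. It called 1 smooth muscle and pericyte marker higher and 2 lower of 4, and 2 RPE markers higher and 1 lower of 5. Of all genes, 26.9% were higher and 26.1% lower. The part of these differences in the mitochondrial shares was not tested. In bulk libraries fewer cells of a kind and less RNA per cell cannot be told apart.

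Over both batches together, 1 of 17 tested members was higher in KO22 and 0 were lower at an adjusted p under 0.05, against 26.9% and 26.1% of all 20455 genes tested. The called member was mt-Ts1, a serine tRNA, with 121, 49.1, 46.9 and 34.5 CPM in WT and 135, 73.6 and 55.4 CPM in KO22, which gave 0.48 ± 0.18 on the log2 scale (edgeR adjusted p = 0.0481). Its groups overlapped, and the call was lost without any of WT libraries 2, 3 or 4 or KO22 libraries 2 or 3 (adjusted p = 0.0783 to 0.314). At an unadjusted edgeR p under 0.05 there were 3 of 17 members, against 11938 of all 20455 genes. DESeq2 called 2 members higher and 1 lower, against 26.2% and 25.2% of all genes. In CPM, the KO22 and WT libraries did not overlap for mt-Rnr1 and mt-Rnr2, both lower, and for mt-Tt, higher, where 25.0% of all genes were lower without overlap and 24.3% higher. mt-Tt, the threonine tRNA, rests on 1 to 12 counts per library. The median log2 fold change was 0.11 over the tested members and -0.03 over all genes. The member that edgeR called did not pass an absolute log2 fold change of 1.2. Of the DESeq2 calls, the tRNA gene mt-Tw, higher in KO22, did (2.11, DESeq2 adjusted p = 0.0493). It rests on 0 to 19 counts in WT and 7 to 15 in KO22 libraries.

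The pooled values joined batches in which the mRNAs went opposite ways. All 9 listed mRNA genes were lower in KO22 than in WT in batch 8995, where 48.2% of all genes were lower and 51.8% higher, 1 library being set against 1. In batch 9262, 0 of 9 were below the WT range, against 40.1% of all genes, and 6 of 9 were above it, against 33.7%. mt-Nd1, a core subunit of complex I, had 1230 CPM in the WT and 683 CPM in the KO22 library of batch 8995. In batch 9262 it had 707, 1068 and 924 CPM in WT and 1375 and 1812 CPM in KO22. The log2 fold change of mt-Nd1 was thus -0.94 in batch 8995 and 0.91 in batch 9262, a difference of 1.85 ± 0.29 (SE, edgeR adjusted p = 8.02e-05 for the interaction of KO22 and batch). Of the 17 tested members, 12 differed between batches with the KO22 effect higher in batch 9262, and 0 with it lower, where 17.2% and 9.34% of all genes did so. The 12 were mt-Nd1, mt-Nd2, mt-Nd4, mt-Nd5, mt-Nd6, mt-Cytb, mt-Co1, mt-Co3, mt-Tq, mt-Tw, mt-Ty and mt-Te. The test rests on a single KO22 and a single WT library in batch 8995, whose spread is taken to be that of the other libraries.

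The size of the KO22 difference in batch 9262 varied among the mRNA genes. mt-Nd5, a subunit of complex I, had 1795, 1756 and 2336 CPM in WT and 2541 and 3277 in KO22 there, against 3195 in WT and 1979 in KO22 in batch 8995 (log2 fold changes 0.67 and -0.78). mt-Nd6, the only protein gene of the L-strand transcript, had log2 fold changes of 0.53 and -0.95, and mt-Nd2 of 0.87 and -0.86. Those of mt-Co1 were 0.38 and -0.56, those of mt-Cytb 0.37 and -1.05, and those of mt-Nd4 0.28 and -1.45, and in batch 9262 the CPM of mt-Cytb and mt-Nd4 overlapped with WT. The rRNA genes showed no such difference in the test, with 0.44 ± 0.37 for mt-Rnr1 (adjusted p = 0.401) and 0.16 ± 0.39 for mt-Rnr2 (adjusted p = 0.796). With the 5 libraries of batch 9262 alone, edgeR called 9 members higher in KO22 and 0 lower, against 32.4% and 31.6% of all genes. The ratio of rRNA to mRNA counts was 7.30 in WT and 4.11 in KO22 in batch 9262, but 4.97 and 5.12 in batch 8995. Pooled, it was 6.72 ± 1.28 in WT and 4.45 ± 0.651 in KO22 (exact two-sided permutation p = 0.114, adjusted p = 0.381), and the groups overlapped.

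**Figure D4:**
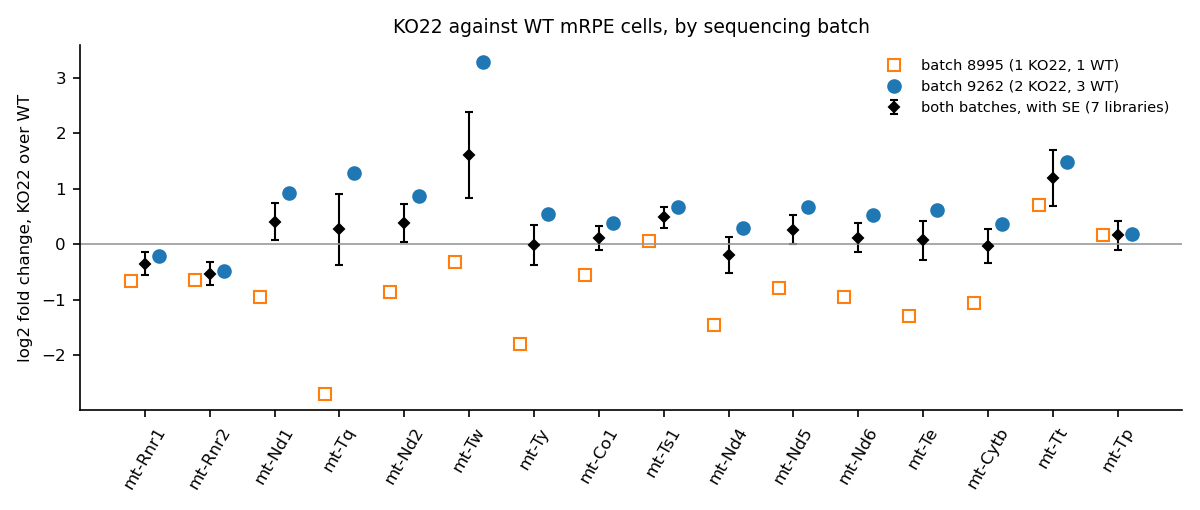
Log2 fold change of KO22 over WT mRPE cells for 16 tested members (mt-Co3, with 0 to 10 counts in all but 1 library, is not drawn), within batch 8995 (open squares, 1 library against 1), within batch 9262 (circles, 2 against 3) and over both with the SE (diamonds). For mt-Nd1 the square lies at -0.94 and the circle at 0.91, while for mt-Rnr2 both lie below 0, at -0.65 and -0.49.

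KO26 cells also had a lower rRNA share than WT cells, at 14.4% and 11.3% against 15.3% to 19.0%. The mean of 12.9% ± 2.16 (SD, n = 2) was 0.747 of the WT mean, with an exact two-sided permutation p of 0.133, the smallest that 2 against 4 libraries allow (adjusted p = 0.381). Within batch 8995 the share was 14.4% in KO26 and 17.9% in WT, and within batch 9262 11.3% and 17.0%. edgeR called 0 of 18 members higher and 0 lower, where 2.36% and 1.13% of all genes were called. At an unadjusted edgeR p under 0.05 there were 2 of 18 members, against 4163 of all 20737 genes. DESeq2 called 0 of the 15 members for which it gave an adjusted p, where 5.44% of all genes were higher and 3.49% lower. CPM did not overlap for mt-Rnr1 and mt-Rnr2, both lower in KO26, where 11.3% of all genes were lower without overlap, and for 0 members higher, where 11.6% were. Here the mRNAs lay on the same side in both batches for several genes. In batch 8995, 7 of 9 were below the WT library and 2 above it, where 49.0% of all genes were below and 50.6% above. In batch 9262, 6 of 9 were below the range of WT and 1 above it, where 32.6% and 34.3% of all genes were. mt-Cytb, the cytochrome b of complex III, had 3187 CPM in KO26 and 4069 in WT in batch 8995, and 810 in KO26 and 1603 to 2713 in WT in batch 9262. Its log2 fold change of -0.67 ± 0.46 had an adjusted p of 0.448, and that of mt-Nd1 was -0.55 ± 0.40 (adjusted p = 0.469). Without KO22 library 1, which shares the estimate of the batch and the spread, 5 members were called lower in KO26 (mt-Nd1, mt-Nd4, mt-Cytb, mt-Co3 and mt-Te), where 6.99% of all genes were. The median over members was -0.33, against 0.03 over all genes.

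KO22 and KO26 were compared to see whether the KO lines were alike. Their rRNA shares overlapped, with means of 12.2% and 12.9% (exact two-sided permutation p = 0.6, where 0.2 is the smallest that 3 against 2 allow). The share of mt-Nd6 among mt-mRNA counts was 1.87%, 1.77% and 2.02% in KO22 and 2.64% and 2.24% in KO26 (exact two-sided permutation p = 0.2, adjusted p = 0.444), beside 1.23% to 2.22% in WT. edgeR called 0 of 18 members in either direction, where 16.3% of all genes were higher and 18.1% lower. There were 3 of 18 members at an unadjusted edgeR p under 0.05, against 9156 of all 20737 genes. DESeq2 called 3 members higher (mt-Nd1, mt-Ts1 and mt-Te), where 18.1% of all genes were. CPM did not overlap for mt-Ts1 and mt-Tt, both higher in KO22, against 24.0% of all genes higher without overlap, and for 0 members lower, against 23.6%. mt-Ts1 differed by 0.86 ± 0.32 on the log2 scale (edgeR adjusted p = 0.0579) and mt-Nd1 by 0.99 ± 0.44 (adjusted p = 0.105). Without KO22 library 1, of batch 8995, 10 members were called higher in KO22, against 23.6% of all genes, and mt-Nd1 differed by 1.64 (adjusted p = 2.25e-05).

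In RPE/choroid the rRNA genes held a larger and the mRNA genes a smaller share of counts in all 3 libraries labelled KO than in any WT library. The rRNA share was 58.7%, 59.6% and 55.3% in WT and 63.2%, 62.9% and 80.4% in KO. The mRNA share was 8.27%, 9.53% and 9.62% in WT and 8.09%, 8.06% and 3.80% in KO. For both, the exact two-sided permutation test gave p = 0.1, the smallest that 3 against 3 libraries allow (adjusted p = 0.381). Library 3 set the size of these differences, since the mean rRNA difference of 11.0 percentage points was 5.20 without it and the mRNA difference of -2.49 was -1.06. Relative to the counts outside mt-, the rRNAs stayed higher, with 178, 193 and 158 counts per 100 other counts in WT and 220, 217 and 508 in KO. The mRNA genes did not keep the difference on that scale, with 25.1, 30.9 and 27.4 in WT and 28.2, 27.8 and 24.0 in KO, which overlap. The ratio of rRNA to mRNA counts, which does not depend on the scale, was 7.11, 6.25 and 5.75 in WT and 7.81, 7.81 and 21.2 in KO (exact two-sided permutation p = 0.1, adjusted p = 0.381). The share of tRNA genes overlapped between groups, at 0.0354% to 0.0366% in WT and 0.0161% to 0.0574% in KO.

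**Figure D5:**
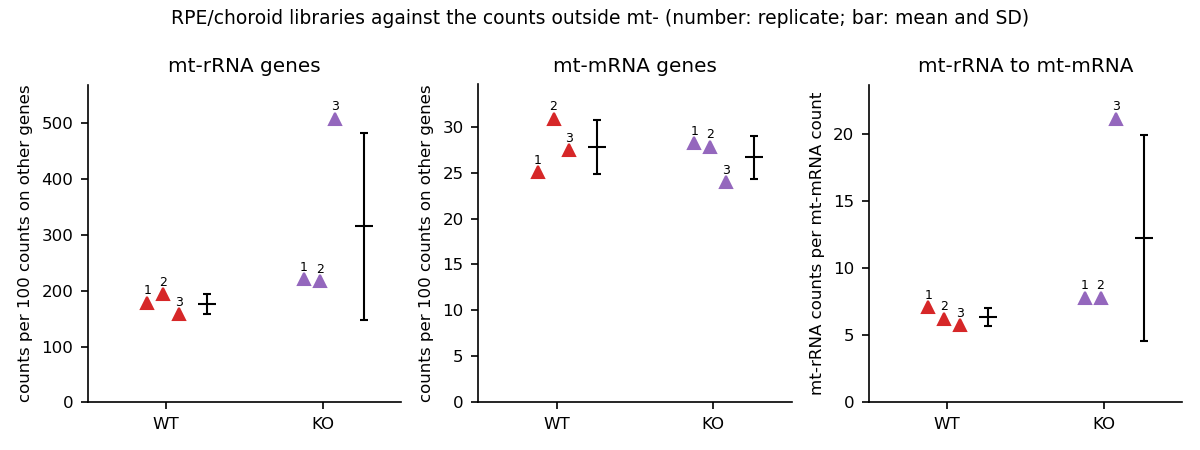
RPE/choroid libraries on the scale of counts outside mt-: mt-rRNA and mt-mRNA counts per 100 counts on all other genes, and the ratio of mt-rRNA to mt-mRNA counts. Triangles are libraries with their replicate number, and the bar is the mean with its SD. KO library 3 lies at 508 rRNA counts per 100 other counts, against 217 and 220 in KO libraries 1 and 2, while the mRNA panel overlaps between WT (25.1 to 30.9) and KO (24.0 to 28.2).

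edgeR called 0 of 25 members higher and 0 lower in the RPE/choroid libraries labelled KO, where 0% of all 24926 genes were higher and 0.193% lower. At an unadjusted edgeR p under 0.05 there were 6 of 25 members, against 2068 of all 24926 genes. DESeq2 called 1 member, mt-Co2, higher and 0 lower, where 0.632% and 1.32% of all genes were. CPM did not overlap for 4 members that were higher in KO (mt-Rnr2, mt-Co2, mt-Tn and mt-Tt), where 0.618% of all genes were, and for 3 that were lower (mt-Co1, mt-Nd4 and mt-Nd5), where 26.7% of all genes were. After TMM scaling the lower CPM of mt-Co1 became a log2 fold change of -0.18 ± 0.29 and that of mt-Nd5 of -0.23 ± 0.31, and mt-Nd1, whose mean CPM was lower in KO, had one of 0.47 ± 0.31. mt-Rnr2 had a log2 fold change of 0.98 ± 0.64 (adjusted p = 0.751) and mt-Rnr1 of 0.96 ± 0.70 (adjusted p = 0.785). Single libraries carried the largest fold changes. mt-Co2 had 1.38, 0.666 and 0.348 CPM in WT and 33.7, 640 and 2.88 in KO, and mt-Tq, the glutamine tRNA, had 56.2, 64.8 and 84.4 CPM in WT and 68.8, 312 and 50.8 in KO. mt-Atp6 reached 30.6 CPM in WT library 2 and 0.178 to 4.55 in the other 5 libraries. The median log2 fold change over the 25 members was 0.33, against 0.01 over all genes.

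The RPE/choroid groups also differed in cell markers. Of the 11 RPE markers, edgeR called 4 lower in KO at an adjusted p under 0.05, *Lrat*, *Rpe65*, *Rdh5* and *Rgr*, where 0.193% of all genes were lower. At an unadjusted edgeR p under 0.05 there were 8 of the 11, against 2068 of all 24926 genes. The median log2 fold change over the list was -2.07. The summed level of the list was 7493 to 10766 counts per 1000000 counts outside mt- in WT and 1776 to 2906 in KO. The 5 endothelial markers summed to 229 to 471 in WT and 107 to 217 in KO, without overlap. Rod and cone markers ranged from 176 to 4772 in WT and from 80.9 to 2287 in KO. Skeletal muscle markers ranged from 1093 to 3639 in WT and from 254 to 2603 in KO. The summed level of the nuclear genes annotated as copies of mitochondrial genes was 9018 to 10180 in WT and 12645 to 19534 in KO. *Rn7sk*, a nuclear RNA without a poly(A) tail, was at 1093 to 1575 in WT and 2022 to 4360 in KO, the highest being library 3. The part of these differences in the mitochondrial shares was not tested.

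Nuclear genes that serve mitochondrial gene expression were described from 5 lists. In KO22 against WT, where 26.9% of all genes were higher and 26.1% lower, 37 of 77 mitoribosomal proteins were higher and 1 lower, with a median log2 fold change of 0.51 against -0.03 over all genes. *Mrps22*, of the small subunit, had 12.8 CPM in WT and 39.3 CPM in KO22 (log2 fold change 1.66 ± 0.16, adjusted p = 3.58e-05), *Mrpl13*, of the large subunit, one of 1.52 and *Mrps31* one of 0.79. Of 32 genes of mitochondrial RNA processing, stability and decay, 15 were higher and 3 lower, beside the same 26.9% and 26.1%. They included *Trmt10c*, a subunit of mitochondrial RNase P (1.21), *Lrpprc*, which binds and stabilises mitochondrial mRNAs (0.75 ± 0.13, edgeR adjusted p = 0.00108), *Tbrg4* (1.40) and *Fastkd3* (1.23). *Slirp*, the partner of *Lrpprc*, had 0.03 ± 0.12. Of 18 genes of mitochondrial transcription, 6 were higher and 5 lower, which is near the shares of all genes. The mitochondrial RNA polymerase *Polrmt* (-0.12 ± 0.18) and the transcription and packaging factor *Tfam* (0.06 ± 0.18) did not pass the test. *Mterf4*, which acts in mitoribosome assembly, fell from 362 CPM in WT to 73.5 in KO22 (log2 fold change -2.21 ± 0.11), *Mrpl12* rose by 1.53 and *Pprc1*, a coactivator, by 0.96. Of 14 genes of replication and maintenance, 6 were higher and 2 lower against the same 26.9% and 26.1%, with *Atad3a* at 1.70, *Mgme1* at 0.86 and the nucleoside kinase *Dguok* at -0.97. Of 13 translation factors, 4 were higher and 3 lower, again near the shares of all genes, including the elongation factors *Tufm* (0.86) and *Gfm1* (0.55) and *Mtres1* (-0.62).

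In KO26 against WT, where 2.36% of all genes were higher and 1.13% lower, edgeR called 1 gene of these 5 lists of 13 to 77 tested genes, *Ptcd3*, a pentatricopeptide protein of the mitoribosome (0.64 ± 0.13, adjusted p = 0.027). *Polrmt* had 0.24 ± 0.27, *Tfam* 0.39 ± 0.20, *Lrpprc* 0.16 ± 0.20 and *Slirp* 0.19 ± 0.17. Between KO22 and KO26, where 16.3% of all genes were higher in KO22 and 18.1% lower, 9 of 77 mitoribosomal proteins were higher and 0 lower, a smaller share than of all genes in both directions, led by *Mrps22* (1.44), *Mrpl13* (1.26) and *Mrps31* (0.88), and *Mterf4* was again lower (-1.86). The RNA-processing genes *Fastkd5* (1.28) and *Trmt10c* (0.81) were higher in KO22 than in KO26 and *Mrm1* lower (-1.01), as were *Atad3a* (1.35, higher) and *Dguok* (-1.17, lower) among the maintenance genes. The comparisons share the WT or KO22 libraries and are not independent of each other. In RPE/choroid 0 genes of these 5 lists were called, with *Polrmt* at -0.09 ± 0.28, *Tfam* at 0.06 ± 0.17, *Lrpprc* at -0.06 ± 0.18 and *Slirp* at 0.13 ± 0.18.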

How the data were processed

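RNA-seq counts per gene were taken from 9 mRPE and 6 RPE/choroid libraries. The authors trimmed the reads with TrimGalore 0.6.7, aligned them to mm39 with STAR and deposited the raw read count of each gene. STAR's gene counts leave out reads that align to several places. The deposited DESeq2-normalised tables were not used. Shares were counts on mt- genes over all counts of a library, compared by exact two-sided permutation tests over libraries, with Benjamini-Hochberg adjustment over 20 tests. A gene entered the edgeR 4.0.16 fit if 3 or more libraries had 5 or more counts (quasi-likelihood test, TMM, sequencing batch as a term for mRPE, KO22 against WT over 7 libraries and the other mRPE contrasts over 9). An adjusted p under 0.05 over all genes was a call. DESeq2 1.42.0 was an alternative, and the edgeR step was tested on simulated data. Nuclear copies were found with minimap2 2.31-r1302 in GRCm39, and gene positions are from GENCODE. All rRNA and mRNA members, the 5 tRNAs with most counts, called members, *Polrmt*, *Tfam*, *Lrpprc*, *Slirp* and the 3 called genes of smallest adjusted p in each list were named. Other members, and the nuclear copies, are named where a result turns on them. The members and lists were chosen with earlier results of these data known. Within-batch fits and the interaction of KO22 and batch were added after seeing the data. *Prom1* was checked in RPE/choroid and was not analysed here in mRPE cells.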

Additional observations from a re-analysis of the deposited data

Results flagged for a closer look

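Of 24 values tested for an outlying library among the 4 WT mRPE libraries, 4 had a library far from the others, and chance gives about 1 in 20. WT library 3 had 1.23% of its mt-mRNA counts on mt-Nd6, against 2.12% to 2.22% in the other WT libraries. WT library 1, the only WT library of batch 8995, had 121 CPM of mt-Ts1 against 34.5 to 49.1, 22.9 CPM of mt-Co3 against 0 to 0.0982, and 3.89 CPM of mt-Tp against 5.42 to 5.59.

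The KO22 effect differed between the 2 sequencing batches for 12 members in the edgeR interaction test. On the log2 scale, the effect in batch 9262 minus that in batch 8995 was 1.85 for mt-Nd1, 1.73 for mt-Nd2, 1.73 for mt-Nd4, 1.45 for mt-Nd5, 1.47 for mt-Nd6, 1.43 for mt-Cytb and 0.94 for mt-Co1. Among the tRNAs it was 3.97 for mt-Tq, 3.59 for mt-Tw, 2.33 for mt-Ty and 1.92 for mt-Te. The value for mt-Co3 was 14.53 and comes from 630 counts in the WT library and 0 in the KO22 library of batch 8995, so its size depends on the prior count. With 1 library per group in batch 8995, a batch difference and a difference of those single libraries cannot be told apart.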

How the results depend on the processing

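No member was called lower in KO22 than in WT, or in either direction in RPE/choroid, when any library was left out. In those fits 22.1% to 31.4% of all genes were lower in KO22. In RPE/choroid 0% to 0.0204% of all genes were higher and 0.0367% to 0.153% lower. The count of members higher in KO22 than in WT ranged from 0 to 12 over the fits without 1 library each, being 10 without WT library 1 and 12 without KO22 library 1, both of batch 8995 (32.8% and 32.4% of all genes). It was 9 in batch 9262 alone (32.4% of all genes). The 10, 12 and 9 are not separate results. With 1 library of batch 8995 left in the fit, the batch term takes it up and the contrast rests on batch 9262. The count was 2 with DESeq2 (26.2%) and 0 without a batch term (24.0%). In one fit over 9 libraries it was 0 (25.3%), and with the fold limit 0 (11.4%). The count lower in KO22 was 1 (mt-Rnr2) with DESeq2, without a count filter and in one fit over 9 libraries, where 25.2%, 25.7% and 24.3% of all genes were lower. DESeq2 called 3 members higher in KO22 than in KO26 (18.1% of all genes) and 1 higher in KO RPE/choroid (0.632%). Leaving out a library gave 0 to 5 members lower in KO26 than in WT and 0 to 10 higher in KO22 than in KO26. The 5 and the 10 came without KO22 library 1, where 6.99% and 23.6% of all genes were called that way. mt-Co3 turned from -2.60 to 2.94 in KO22 without KO22 library 1 and was -2.81 to 2.94 over the libraries left out, and 1.59 with DESeq2. Several class values turned direction, none of them past p under 0.05. The mt-mRNA share in KO22 minus WT was -0.0706 per 100 counts outside mt-, and -0.0767 to 0.431 percentage points without 1 library each. Its range was -1.09 to 0.393 for KO26 minus WT and -0.281 to 1.2 for KO22 minus KO26. The mt-rRNA share ranged from -2.21 to 0.840 for KO22 minus KO26. The mt-tRNA share ranged from -0.00312 to 0.000289 for KO26 minus WT, and from -0.0102 to 0.0104 in RPE/choroid, where it was -0.17 on the log2 scale. The ratio of mt-rRNA to mt-mRNA counts ranged from -1.99 to 0.543 for KO26 minus WT. The share of mt-Nd6 ranged from -0.279 to 0.0523 for KO22 minus WT, where it was 0.00405 on the log2 scale and 0.0613 in batch 9262 alone, and from -0.813 to 0.801 in RPE/choroid. The rRNA share stayed lower in KO22 and in KO26 than in WT and higher in KO RPE/choroid on the scale of counts outside mt-. The same held on the log2 scale and with each library left out. Those 2 settings could not turn the direction, since the groups did not overlap. The causes of these changes were not tested. mt-Nd3, mt-Tw and mt-Tt had at most 20 counts in each mRPE library, and mt-Co3 at most 10 in all but WT library 1, so their fold changes depend on the prior count. Reads shared with the nuclear copies limit mt-Co1, mt-Ty, mt-Ts1, mt-Nd4 and all members inside the copy.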
